A study of Mus musculus with 16 samples.

Results

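miR-9 is a microRNA (miRNA), a short RNA that guides the silencing of messenger RNAs, and its precursor hairpin gives rise to 2 mature products, miR-9-5p and miR-9-3p, 1 from each arm. These 2 rows, mmu-miR-9-5p and mmu-miR-9-3p in the deposited tables (the prefix marks mouse), were taken by name from the tables of raw reads, out of 941 named mouse miRNAs in the table of cells and 941 in the table of extracellular vesicles (EVs, the membrane-bound particles that cells release). Of the 941 names, 781 had reads in cells and 649 in EVs. The recipient cells were RAW264.7, a male macrophage line from BALB/c mice, and formed 4 groups of 3 libraries. 1 group was given PBS (PBS cells). The others received vesicles isolated from the serum of Con A-treated mice (called serum Con A EVs), from medium of Con A-treated RAW264.7 cultures (RAW Con A EVs) or from medium of saline-treated cultures (RAW saline EVs). EVs were added at 6000000000 particles per mL for 8 h, and every group, the PBS cells included, then received concanavalin A (Con A), with 16 h of exposure, at a dose not stated in the labels. This lectin from jack beans stimulates T cells and causes hepatitis in mice. No group of cells without Con A, and none given EVs from saline-injected mice, was among the samples, so an effect of serum EVs as such and one of Con A in the donor mice cannot be told apart.

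The EVs themselves gave 4 libraries with 1 preparation each and no replicate. The donors of serum EVs were female BALB/c mice aged 8 to 9 weeks that had received saline, or 15 mg/kg of Con A and were bled after 9 h. The donors of RAW EVs were RAW264.7 cultures kept for 24 h with saline or with 25 µg/mL of Con A. The labels do not say how many mice were pooled, nor whether the 3 libraries of a cell group stem from separate cultures. The p-values thus reflect the spread between libraries, which may be technical. Totals ran from 174510 to 403332 miRNA reads in cells and from 114791 to 334285 in EVs. All 6 macrophage and blood cell miRNAs used as a check of the cell type (miR-21a-5p, miR-146a-5p, miR-155-5p, miR-223-3p and both arms of miR-142a) had reads in every cell library.

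miR-9 is best known from the brain, where it is abundant in neural progenitors and promotes neuronal differentiation by repressing factors such as Rest and Nr2e1. In human monocytes and neutrophils it is also known to be induced through Toll-like receptors by way of NF-κB, and there the 5p arm targets NFKB1, the gene of an NF-κB subunit, in a feedback loop. A miRNA finds its targets mainly by its seed, the bases at positions 2 to 8 from the 5′ end. The mature sequences are printed here, with the seed in capitals, because they are the molecules that the counts stand for (RefSeq, GRCm38.p6, with 2 of 2 members matched).
miR-9-5p: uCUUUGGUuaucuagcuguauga
miR-9-3p: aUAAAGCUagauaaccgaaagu

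The arms do not share a seed, and none of the 1679 mature mouse miRNA names that RefSeq lists, other than the arm itself, had the seed of miR-9-5p or that of miR-9-3p. They lie opposite each other in the hairpin, and a run of 12 bases of miR-9-5p is exactly complementary to miR-9-3p.

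The same mature pair is encoded 3 times in the mouse genome, and the 3 hairpins are printed with the mature arms in capitals to show that they differ only outside the arms.
Mir9-1: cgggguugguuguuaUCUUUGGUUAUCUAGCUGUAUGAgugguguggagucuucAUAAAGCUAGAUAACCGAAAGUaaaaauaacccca
Mir9-2: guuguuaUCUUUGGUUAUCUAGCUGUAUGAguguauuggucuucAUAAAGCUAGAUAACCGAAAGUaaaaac
Mir9-3: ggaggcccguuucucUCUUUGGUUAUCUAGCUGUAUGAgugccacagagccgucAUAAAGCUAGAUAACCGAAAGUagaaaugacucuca

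Reads of a mature arm cannot be assigned to 1 of the 3 genes. In GRCm38.p6 Mir9-1 lies at chr3:88215598-88215686, Mir9-2 at chr13:83738814-83738885 and Mir9-3 at chr7:79505264-79505353, all on the plus strand. In the GENCODE M21 annotation Mir9-1 lies in an intron of the long noncoding RNA gene Gm3764, Mir9-3 in an intron of Mir9-3hg, and Mir9-2 in an exon of C130071C03Rik. The segment between the arms is 16 bases long in Mir9-1 and Mir9-3 and 14 in Mir9-2. No source used here names the build behind the authors' counts. RefSeq also lists miR-9b, read from the opposite strand of these loci, whose 5p arm shares a run of 12 bases with miR-9-5p. It was not analysed here, and whether its reads could be counted under miR-9 is not known, since no source used here names the annotation.

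miR-9-5p was among the abundant miRNAs of RAW264.7 cells and was highest in cells given serum Con A EVs. Levels are given in CPM, the reads of a miRNA divided by the miRNA reads of its library and multiplied by 1000000, scaled by TMM, a method that matches libraries on the bulk of their miRNAs. In bulk libraries like these, fewer cells with a miRNA and less of it per cell cannot be told apart. The PBS cells had 974, 1347 and 1327 reads of miR-9-5p, or 4231, 4354 and 4165 CPM. The recipients of serum Con A EVs had 1948, 1502 and 1571 reads, or 5110, 4957 and 5154 CPM. All 3 of these libraries lay above every other cell library. Cells given RAW saline EVs had 851, 1478 and 867 reads, or 4112, 4073 and 3785 CPM, and cells given RAW Con A EVs had 643, 1017 and 1445 reads, or 3828, 4393 and 3934 CPM. The libraries given RAW Con A EVs overlapped with those of PBS cells, and the libraries given RAW saline EVs lay below them. By number of reads within each library, miR-9-5p was the 34th miRNA in all 3 PBS libraries, the 29th in all 3 libraries given serum Con A EVs, and the 32nd to 37th in the 6 libraries given RAW EVs.

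miR-9-3p, the minor arm, was far less abundant. It had 28, 46 and 45 reads in PBS cells (122, 149 and 141 CPM) and 60, 49 and 44 reads after serum Con A EVs (157, 162 and 144 CPM). It had 26, 41 and 31 reads in cells given RAW saline EVs (126, 113 and 135 CPM) and 29, 21 and 52 reads in cells given RAW Con A EVs (173, 90.7 and 142 CPM). The groups overlapped, except that the libraries given serum Con A EVs were above those given RAW saline EVs. The widest group was RAW Con A EVs, whose highest and lowest libraries rest on 29 and 21 reads, with 95% Poisson intervals of 111 to 239 and 53.1 to 131 CPM by library size that overlap.

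**Figure D1:**
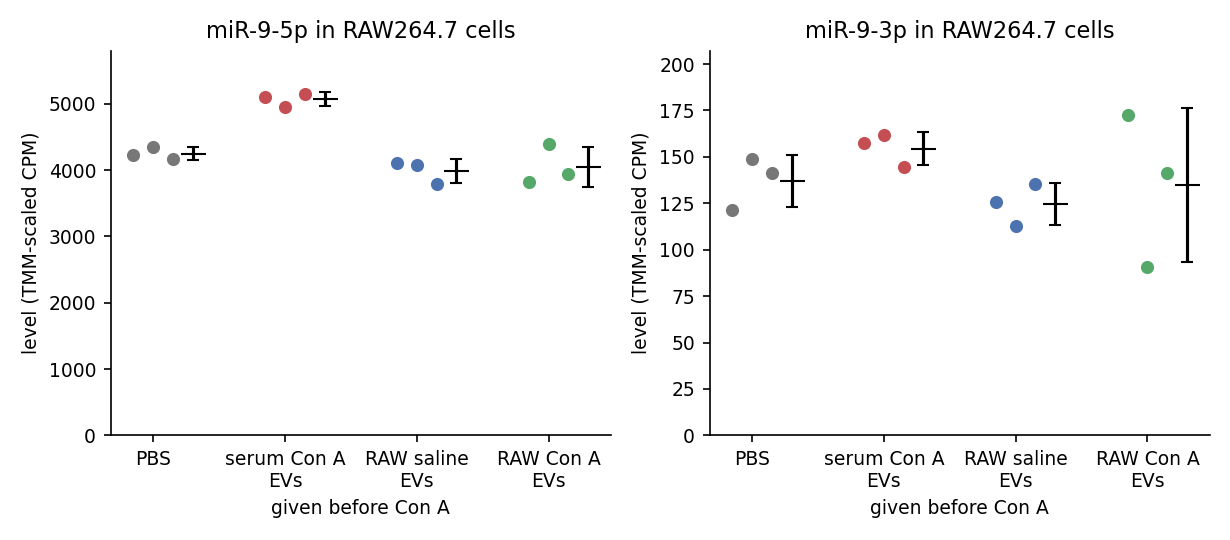
Levels of miR-9-5p (left) and miR-9-3p (right) in RAW264.7 cells in TMM-scaled CPM. Each point is 1 library and the bars are mean ± SD of 3 libraries, and the 3 libraries given serum Con A EVs, at 4957 to 5154 CPM of miR-9-5p, lie above all others.

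The comparison of EV-treated with PBS cells asks whether vesicles change the miRNAs of Con A-treated macrophages. After serum Con A EVs miR-9-5p stood at 5074 ± 103 CPM, and without EVs, in the PBS cells, at 4250 ± 96.2 CPM (each the mean ± SD of n = 3), a 1.19-fold higher level. The log2 difference was 0.26 (SE 0.06, 95% interval 0.13 to 0.38, edgeR's quasi-likelihood test, Benjamini-Hochberg adjusted p = 0.00193), and 3 of 3 libraries lay above all PBS libraries. It passed in each of 21 alternative fits. Of the 229 miRNAs tested in this comparison 21.4% were called, 7.86% higher and 13.5% lower, and 19.7% had groups that did not overlap, with the cells given EVs higher. By size, miR-9-5p was the 14th of the 18 miRNAs called higher, whose median log2 difference was 0.42. By p it was the 22nd of 229.

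Markers of other cell types that are abundant in serum moved with this group. All 3 erythrocyte miRNAs (miR-451a, miR-144-3p and miR-486a-5p) had reads in each library given serum Con A EVs, at a summed 87.4 to 112 CPM by library size, and 0 of 3 had reads in the PBS libraries. All 3 hepatocyte miRNAs had reads in both groups. miR-122-5p, which defines hepatocytes, had 51 to 76 reads per library after serum Con A EVs and 2 to 8 in PBS cells, and miR-148a-3p had 83 to 101 and 3 to 8. miR-192-5p went the other way, with 72 to 87 and 195 to 351 reads, and the 3 summed to 676 to 829 CPM after serum Con A EVs and 904 to 1172 CPM in PBS cells. miR-150-5p of lymphocytes had 1 read over the 3 libraries given serum Con A EVs. The serum Con A EV library itself held 0 reads of either miR-9 arm among 334285, which allows a level of up to 8.97 CPM. The part of erythrocyte and hepatocyte miRNAs in the higher level of miR-9-5p was not tested.

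After the EVs of RAW264.7 cells no change of miR-9 passed the test. With RAW Con A EVs miR-9-5p was at 4051 ± 300.2 CPM (n = 3), a log2 difference from PBS of −0.07 (SE 0.06, 95% interval −0.20 to 0.06, edgeR adjusted p = 0.600). With RAW saline EVs it was at 3990 ± 178 CPM, a log2 difference of −0.09 (SE 0.06, 95% interval −0.22 to 0.04, edgeR adjusted p = 0.336), with 3 of 3 libraries below all PBS libraries. Groups did not overlap in that direction for 15.7% of the miRNAs tested. In these comparisons 11.4% (6.11% higher and 5.24% lower) and 14.0% (7.42% higher and 6.55% lower) of the miRNAs were called. With libraries scaled by size alone both differences were −0.20 and passed (edgeR adjusted p = 0.0378 and 0.0282). That scaling also moved the median of all 229 miRNAs by −0.14 and −0.10, and relative to the median miR-9-5p then stood at −0.06 and −0.09.

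Among the groups given EVs, miR-9-5p differed between serum Con A EVs and either kind of RAW EVs. It was 1.25-fold higher after serum Con A EVs than after RAW Con A EVs (log2 difference 0.32, SE 0.06, 95% interval 0.20 to 0.45, edgeR adjusted p = 8.06e-05) and 1.27-fold higher than after RAW saline EVs (0.35, SE 0.06, 95% interval 0.22 to 0.47, edgeR adjusted p = 1.91e-05). In both, 3 of 3 libraries lay above all libraries of the other group, and all 21 alternative fits passed. Of the miRNAs tested, 34.9% were called after serum Con A against RAW Con A EVs (17.9% higher and 17.0% lower) and 41.5% after serum Con A against RAW saline EVs (22.3% higher and 19.2% lower). Groups did not overlap, with serum Con A EVs higher, for 23.1% and 25.3%. The serum Con A group is the same in both, so they and the comparison with PBS share those libraries. After RAW Con A against RAW saline EVs the log2 difference was 0.02 (SE 0.06, 95% interval −0.11 to 0.15, edgeR adjusted p = 0.894), where 3.49% of the miRNAs were called, 2.18% lower.

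miR-9-3p passed in none of the 6 comparisons, by edgeR's quasi-likelihood test (adjusted p from 0.181 to 0.900, unadjusted p from 0.0911 to 0.772). DESeq2 and limma-trend gave no call for it either. Against PBS its log2 difference was 0.16 after serum Con A EVs (SE 0.18, 95% interval −0.21 to 0.53), −0.06 after RAW Con A EVs (SE 0.20) and −0.17 after RAW saline EVs (SE 0.20). The standard error of the median miRNA was 0.15 to 0.16 over the 6 comparisons, and that of miR-9-5p 0.06. The intervals of miR-9-3p include both 0 and the log2 difference of miR-9-5p in the same comparison. After serum Con A against RAW saline EVs the log2 difference was 0.33 (95% interval −0.06 to 0.72, edgeR adjusted p = 0.181), with 3 of 3 libraries higher. Groups did not overlap in that direction for 25.3% of the miRNAs. Scaled by library size alone it passed, at 0.51 (edgeR adjusted p = 0.0282).

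**Figure D2:**
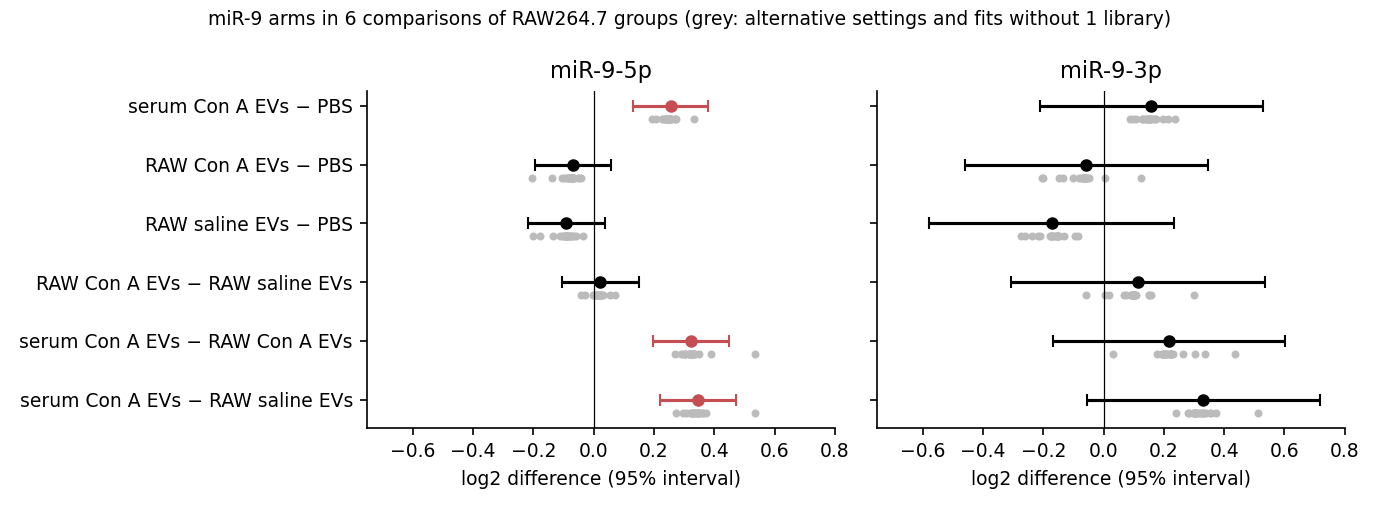
Log2 differences of miR-9-5p (left) and miR-9-3p (right) in the 6 comparisons of cell groups, with 95% intervals of edgeR's fit (red where adjusted p is under 0.05) and, in grey, the values of the alternative settings and of fits without 1 library. miR-9-5p is at 0.26, 0.32 and 0.35 where serum Con A EVs are compared and near 0 elsewhere, and every interval of miR-9-3p includes 0.

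The balance between the arms asks whether both products of the hairpin moved together. miR-9-3p made up 3.13 ± 0.287% of miR-9 reads in PBS cells, 2.96 ± 0.219% after serum Con A EVs, 3.04 ± 0.382% after RAW saline EVs and 3.27 ± 1.16% after RAW Con A EVs (mean ± SD, n = 3 each). None of the 6 differences passed an exact 2-sided permutation test (p from 0.5 to 0.9, each 0.9 after adjustment over the 6), where 0.1 is the smallest p that 3 against 3 libraries allow. Library by library the share ran from 2.02% (RAW Con A EVs library 2, 95% Wilson interval 1.33 to 3.07%) to 4.32% (RAW Con A EVs library 1, 3.02 to 6.13%). These extremes lie in the same group. Among 71 hairpins with at least 1000 reads over both arms in cells, miR-9 was the 40th from the most one-sided, and the median share of the minor arm was 2.67%. In the RAW EVs the 3p arm had 5 of 253 miR-9 reads after saline (1.98%, 0.847 to 4.54%) and 5 of 96 after Con A (5.21%, 2.24 to 11.6%), intervals that overlap those of the cells.

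**Figure D3:**
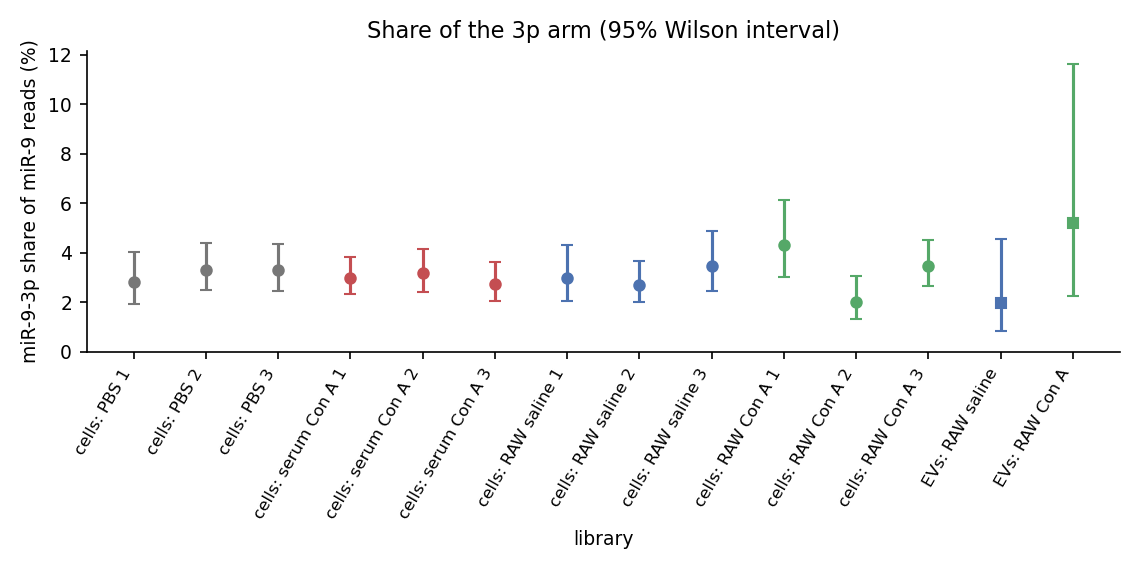
Share of miR-9-3p among the reads of both arms in the 12 cell libraries (circles) and in the RAW EV libraries (squares), with 95% Wilson intervals that cover counting error. The cell libraries lie between 2.02 and 4.32%, and the intervals overlap between groups.

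In the vesicles, miR-9 was found in those of RAW264.7 cells and was nearly absent from those of serum. RAW saline EVs held 248 reads of miR-9-5p among 114791, or 2160 CPM (95% Poisson interval 1900 to 2447), and RAW Con A EVs 91 reads among 134884, or 675 CPM (543 to 828). Serum saline EVs held 4 reads among 132130, or 30.3 CPM (8.25 to 77.5), and serum Con A EVs 0. By CPM both RAW preparations lay above both serum preparations. miR-9-5p was the 47th miRNA of 419 with reads in RAW saline EVs, the 81st of 398 in RAW Con A EVs and, among ties, the 229th of 417 in serum saline EVs. miR-9-3p had 5 reads in each RAW EV library (43.6 and 37.1 CPM) and 0 in each serum EV library, which allows up to 22.7 CPM in serum saline EVs. There is 1 library per preparation, so intervals cover counting error only and no test was made.

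Without Con A in the donors, miR-9-5p stood 71.4-fold lower in serum than in RAW EVs (95% interval 27.5 to 264), the 6th lowest ratio of 144 miRNAs with 50 or more reads in the pair of libraries, of which 29.9% were at a ratio of 0.5 or less. With 4 other scalings it stood 32.9-fold to 101-fold lower. With Con A, the exact 95% interval for 0 against 91 reads placed miR-9-5p at least 59.9-fold lower in serum than in RAW EVs. Counting 3 reads in place of 0 in the serum library, the value was 75.2-fold lower. Of 120 miRNAs in this pair, 70.8% were at a ratio of 0.5 or less. Scaled in 4 other ways the limit of the interval was 11.1-fold to 14.5-fold. For the serum pair, the exact 95% interval for 0 against 4 reads placed the level at least 1.67-fold lower after Con A by CPM. With 3 reads in place of 0, the value was 3.37-fold lower. Of 124 miRNAs in this pair, 81.5% were at a ratio of 0.5 or less. With 4 other scalings the same reads gave no direction. By the authors' scaling the pair as a whole went the other way, with 0.806% of the 124 miRNAs at a ratio of 0.5 or less and 99.2% at 2 or more. No value of miR-9-5p is given by that scaling, since 1 count is 0.

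The miR-9-5p level of RAW EVs was 3.20-fold lower after Con A by CPM (95% interval 2.51 to 4.12), the 24th lowest ratio of 134 miRNAs, of which 29.1% were at a ratio of 0.5 or less. The hepatocyte miRNAs moved with this difference. All 3 had reads in both libraries, and together they made up 2.32% of the reads in RAW saline EVs and 28.9% in RAW Con A EVs. In the libraries of recipient RAW264.7 cells they made up 0.0676 to 0.142%. The labels give no source of hepatocyte miRNAs in RAW Con A EVs, and their source was not tested. Without the reads of hepatocyte miRNAs in the total, miR-9-5p was 2.33-fold lower after Con A (1.83 to 3.00). miR-21a-5p, the most abundant miRNA of the cells, also stood lower after Con A, at 27928 against 104398 CPM. Per read of miR-21a-5p, miR-9-5p stood at a ratio of 1.17 after Con A (0.908 to 1.49), an interval that includes 1. That scaling moved the median ratio of the 134 miRNAs from 0.898 to 3.36. The rank of miR-9-5p, the 24th lowest, cannot change with the scaling, since each scaling divides a library by 1 number. Hepatocyte miRNAs made up 23.7% of serum saline and 85.2% of serum Con A EV reads, and their part in the CPM differences beyond these values was not tested.

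**Figure D4:**
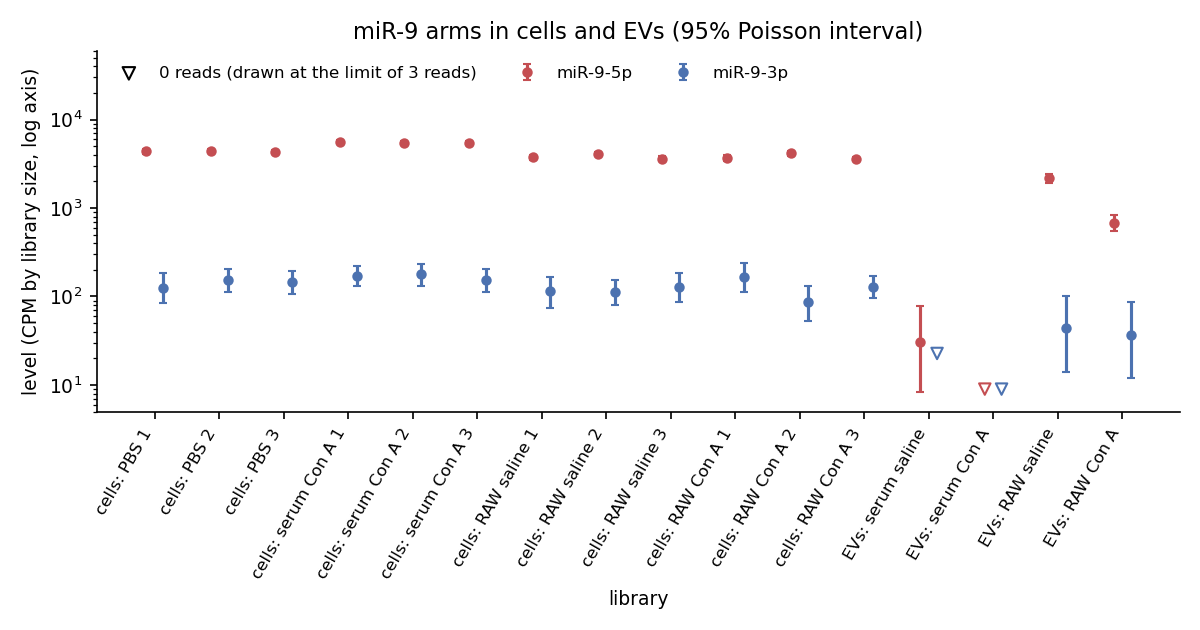
Levels of both miR-9 arms in all 16 libraries in CPM by library size on a log axis, with 95% Poisson intervals and open triangles for 0 reads drawn at the limit of 3 reads. miR-9-5p lies at 3583 CPM or more in cells, at 2160 and 675 CPM in RAW EVs and at 30.3 CPM or 0 reads in serum EVs.

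Set beside the recipients, the vesicles with the most miR-9-5p by CPM were not those after which it was highest. Cells given RAW saline EVs (2160 CPM in the vesicles) had 3609 to 4050 CPM by library size, and cells given serum Con A EVs (0 reads in the vesicles) had 5436 to 5600 CPM. Every EV level was below that of all cell libraries, whose lowest was 3583 CPM. CPM in a vesicle library gives no amount delivered to a cell, and whether vesicles passed miR-9 to the cells was not tested. The cells that released the RAW EVs were not analysed here, so no level of vesicles relative to their own donor cells is given. A ratio within the library that needs no scaling also placed the recipients of serum Con A EVs above all other cell libraries. Per 100 reads of miR-21a-5p there were 1.58 to 1.67 reads of miR-9-5p in PBS cells, 2.07 to 2.34 after serum Con A EVs, 1.29 to 1.48 after RAW saline EVs and 1.29 to 1.46 after RAW Con A EVs. In the RAW EVs the ratio was 2.07 after saline and 2.42 after Con A. miR-21a-5p itself was called lower after serum Con A EVs (log2 difference −0.18) and higher after RAW Con A EVs (0.19), so this ratio shows unequal change of the pair. The second of these calls ended without any 1 of the PBS libraries and without RAW Con A EVs library 2 or 3 (edgeR adjusted p from 0.0526 to 0.152). It also ended with upper-quartile scaling, library size alone, the authors' factors and no filter (0.136, 0.383, 0.0906 and 0.320).

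The levels of other inducible macrophage miRNAs are set beside those of miR-9-5p. Of a list of 13 such miRNAs (miR-132-3p, miR-212-3p, miR-187-3p, miR-147-3p, let-7e-5p, miR-99b-5p, miR-125a-5p, miR-146b-5p, miR-146a-5p and both arms of miR-155 and miR-21a), 9 had enough reads to be tested in cells. After serum Con A EVs, against PBS, 0 of 9 rose and 3 fell, where 7.86% of all miRNAs were called higher and 13.5% lower, with a median log2 difference of −0.08 for the list and 0.0065 for all 229 miRNAs. Those that fell were miR-155-5p, which promotes inflammatory signalling in macrophages (−2.26, SE 0.11, edgeR adjusted p = 2.54e-18), its hairpin partner (−2.13), and the abundant miR-21a-5p (edgeR adjusted p = 0.0283). The call of miR-21a-5p ended when 1 library was left out, PBS 2, PBS 3 or the first given serum Con A EVs (edgeR adjusted p = 0.0994, 0.0837 and 0.139), and with library size alone (0.0747). miR-146a-5p, which restrains NF-κB signalling by targeting Irak1 and Traf6, stood at 0.11 (SE 0.07, edgeR adjusted p = 0.270).

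After the EVs of RAW264.7 cells some miRNAs of the list rose and miR-9-5p did not pass the test. miR-146a-5p rose, by 0.92 after RAW Con A EVs and 0.82 after RAW saline EVs on the log2 scale, while miR-9-5p was at −0.07 and −0.09. Of the 9 tested, 2 rose and 1 fell in each comparison with PBS, where 6.11% and 7.42% of all miRNAs were called higher and 5.24% and 6.55% lower, and the medians were 0.10 and 0.13 against −0.0096 and −0.0038 for all miRNAs. The member that fell was miR-155-3p in both, by 0.71 and 1.43 on the log2 scale. The first of these calls ended without PBS library 3 and without any 1 of the RAW Con A libraries (edgeR adjusted p from 0.0540 to 0.217), and with DESeq2 and limma-trend (adjusted p = 0.150 and 0.0573). miR-155-5p rose after RAW saline EVs (0.45, edgeR adjusted p = 1.00e-04) and was at 0.10 after RAW Con A EVs (edgeR adjusted p = 0.520). Where serum Con A EVs were compared with RAW Con A EVs, 0 of 9 rose and 5 fell (both arms of miR-155, let-7e-5p, miR-146a-5p and miR-21a-5p), beside 17.9% called higher and 17.0% lower over all miRNAs. Against RAW saline EVs 0 rose and 3 fell (miR-21a-5p, miR-146a-5p and miR-155-5p), beside 22.3% and 19.2%, and miR-9-5p was higher in both. The call of let-7e-5p ended without RAW Con A EVs library 3 and with library size alone (edgeR adjusted p = 0.115 and 0.493). Between RAW Con A and RAW saline EVs, 1 of 9 fell (2.18% of all miRNAs were called lower), miR-155-5p at −0.35 (edgeR adjusted p = 0.0143). That call ended without RAW saline EVs library 3, RAW Con A EVs library 2 or RAW Con A EVs library 3 (edgeR adjusted p = 0.0750, 0.0719 and 0.0650), with upper-quartile scaling (0.0572) and with DESeq2 (0.194).

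**Figure D5:**
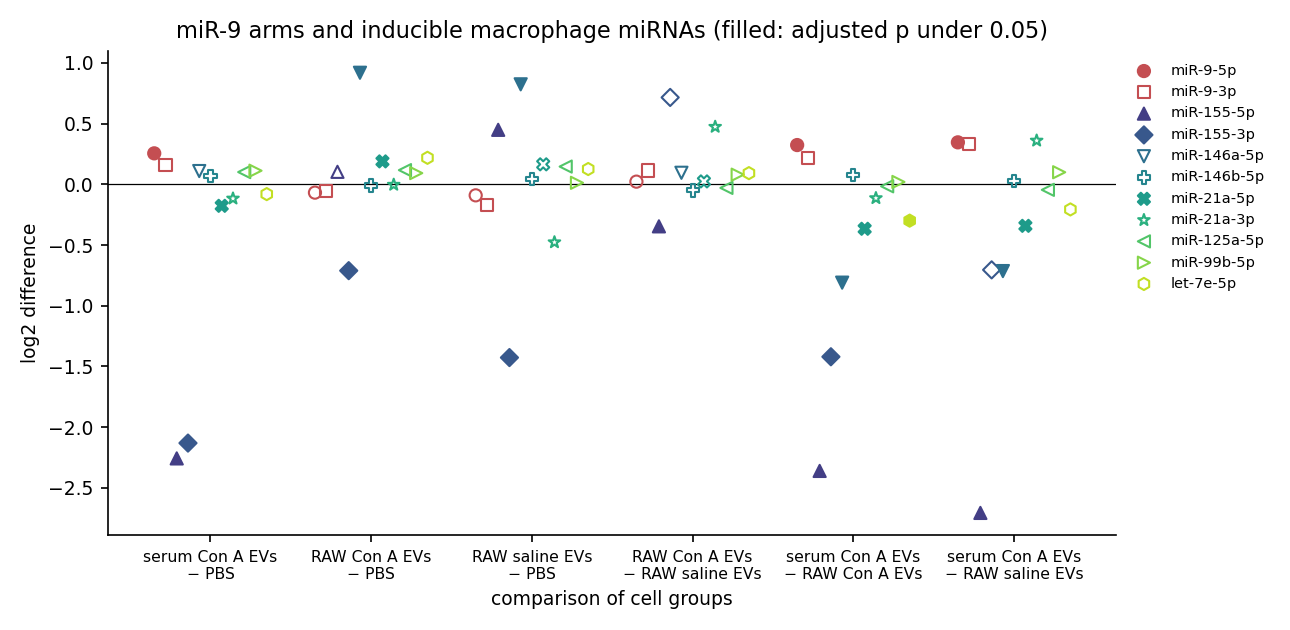
Log2 differences of the miR-9 arms (red) and of the 9 tested inducible macrophage miRNAs in the 6 comparisons of cell groups, with filled symbols for adjusted p under 0.05 by edgeR's test. In the comparison of serum Con A EVs with PBS miR-9-5p, at 0.26, is filled above 0, and both miR-155 arms and miR-21a-5p are filled below it.

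In the RAW EVs the members of this list with at least 50 reads lay on both sides of equality, without a test of their difference from miR-9-5p. By CPM, Con A against saline, miR-99b-5p stood at a ratio of 0.154 (95% interval 0.130 to 0.181), miR-125a-5p at 0.204 (0.138 to 0.296) and miR-21a-5p at 0.268 (0.258 to 0.278), beside 0.312 for miR-9-5p (0.243 to 0.399), whose interval overlaps those of miR-125a-5p and miR-21a-5p. miR-146b-5p stood at 1.05 (0.965 to 1.15), let-7e-5p at 1.34 (0.932 to 1.96), miR-146a-5p at 1.45 (1.33 to 1.57) and miR-155-5p at 5.90 (3.35 to 11.2). miR-155-5p had 14 and 97 reads in the 2 libraries.

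Of 8 neural miRNAs, checked because miR-9 is a brain miRNA, 3 (miR-124-3p, miR-137-3p and miR-153-3p) were not among the 941 names in cells or in EVs. At most 4 of the others had reads in any 1 library. In cells nearly all of those reads were of miR-128-3p, which is also widely expressed outside the brain. The neural list summed to 4250 to 4372 CPM by library size in PBS cells, 4791 to 5145 CPM after serum Con A EVs, 3834 to 4193 CPM after RAW saline EVs and 3839 to 4168 CPM after RAW Con A EVs. Its part in the result for miR-9-5p was not tested.

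The miRNAs whose levels were most like those of miR-9-5p over the 12 cell libraries, by Pearson r of log2 CPM among 228 candidates, were let-7a-1-3p (r = 0.91), miR-181a-2-3p (0.90), miR-130b-5p (0.89), miR-425-5p (0.88) and let-7c-2-3p (0.87). The libraries fall into the 4 groups, which these values share, and r of the deviations from the group means was 0.45, 0.58, 0.50, 0.34 and 0.22 in the same order. After serum Con A EVs their log2 differences from PBS were 0.46, 0.60, 0.50, 0.19 and 0.49, given as a description, since the likeness includes the group differences. Those of miR-181a-2-3p and miR-425-5p did not pass edgeR's test (adjusted p = 0.0784 and 0.0615). miR-9-3p ranked 96th, at r = 0.18, and r of the deviations from the group means was −0.82. Its levels rest on 21 to 60 reads per cell library, and its widest group, RAW Con A EVs, ran from 90.7 to 173 CPM. Whether the arms differ in direction within groups was not tested. The arms share their libraries and scaling.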

How the data were processed

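Per the labels' protocols, small RNA libraries (NEBNext kit) were read on a MiSeq, 51 bp from 1 end. Raw read counts per mature miRNA are deposited in 2 tables and a normalized signal in 5. In the cell tables the deposited signal was the count times 1 factor per library, and in the EV tables the count divided by 1 whole number per library (13 and 16 for the RAW EVs), as tested on the values. Per the submitters' processing notes edgeR was used, with no version. No source used here names the aligner, annotation or build.

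Raw counts of the 12 cell libraries were filtered by filterByExpr, scaled by TMM and tested in 1 quasi-likelihood model over 4 groups (edgeR 4.0.16, R 4.3.3), 2-sided, with Benjamini-Hochberg adjustment over 229 miRNAs in each of 6 comparisons and a threshold of 0.05. The standard error is the log2 difference divided by the square root of F. The fit was tested on simulated counts for serum Con A EVs against PBS. It called 38.6% of the tested miRNAs changed 1.25-fold, 68.2% of those changed 1.5-fold and 85.4% of those changed 2-fold. Of unchanged miRNAs 1.06% were called. Over all tested miRNAs, many differences of about 1.25-fold would thus not pass. These shares are not specific to miR-9-5p, whose standard error in this comparison was 0.06 beside a median of 0.15. Alternatives were other scalings, no filter, DESeq2 1.42.0, limma 3.58.1, the compared groups alone, a replicate block and each library left out. EV ratios have exact 95% intervals for 2 Poisson counts (scipy 1.17.1), and a count of 0 has a floor of 3 reads per library. Intervals and floors cover counting error only.

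Replicate pairs within a group all differed beyond counting error. Likeness was ranked among miRNAs with a mean of at least 10 CPM, and the 5 most alike were named. Other names came from the list of inducible miRNAs (calls, with miR-155-5p, miR-146a-5p and miR-21a-5p) and the marker lists. The members, lists and rules were chosen with earlier results of these data known.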

Additional observations from a re-analysis of the deposited data

How the results depend on the processing

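The calls of miR-9-5p in the 3 comparisons with serum Con A EVs passed in all 9 other settings and all 12 fits without 1 library. Their log2 differences ran from 0.20 to 0.33 against PBS, 0.27 to 0.54 against RAW Con A EVs and 0.27 to 0.53 against RAW saline EVs (highest edgeR or other adjusted p = 0.0226, 0.00362 and 0.00329). Library size alone gave −0.20 for miR-9-5p in RAW Con A EVs and −0.20 in RAW saline EVs against PBS, and 0.51 for miR-9-3p in serum Con A against RAW saline EVs, all past the threshold. It turned miR-9-5p in RAW Con A against RAW saline EVs to −0.0019, beside −0.041 to 0.032 without 1 library. Without 1 library miR-9-3p ran from −0.20 to 0.13 in RAW Con A EVs against PBS and from −0.057 to 0.30 in RAW Con A against RAW saline EVs. The share of miR-9-3p ran, without 1 library and in percentage points, from −0.377 to 0.769 for RAW Con A EVs and −0.294 to 0.0829 for RAW saline EVs against PBS. It ran from −0.290 to 0.856 for RAW Con A against RAW saline, −0.937 to 0.209 for serum Con A against RAW Con A and −0.251 to 0.125 for serum Con A against RAW saline EVs. The cause was not tested.

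EV ratios moved with the denominator. For miR-9-5p in RAW EVs, Con A over saline, the ratio was 0.312 by CPM, 0.272 without the 10 most abundant miRNAs and 0.298 by the authors' scaling. It was 0.428 by upper quartile, 0.429 without hepatocyte miRNAs and 1.17 per miR-21a-5p read. In the order without the 10 most abundant miRNAs, upper quartile, per miR-21a-5p read and without hepatocyte miRNAs, the ratio with 3 reads in place of 0 of serum Con A over RAW Con A EVs was 0.0550, 0.0685, 0.0715 and 0.0641 for miR-9-5p and 1.00, 1.25, 1.30 and 1.17 for miR-9-3p, and that of serum Con A over serum saline EVs for miR-9-5p was 1.45, 2.03, 2.74 and 1.53. For miR-9-3p in serum saline over RAW saline EVs it was 1.13 per miR-21a-5p read. Such a ratio above 1 gives no direction. The last 2 denominators were chosen after seeing the data. The authors' scaling was not used across serum and RAW EVs, whose tables were normalized separately, nor where a member has 0 reads.

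The replicate block, with the library numbers of the titles, left miR-9-5p at 0.26 after serum Con A EVs against PBS and changed no call of a miR-9 arm. Same-numbered libraries had correlations of −0.21 to 0.20, over 0.1 in 2 of 18 pairs, so the numbers were not taken as pairs. The number of miRNAs called went with DESeq2 from 49 to 32 in serum Con A EVs and from 26 to 11 in RAW Con A EVs against PBS, from 80 to 52 in serum against RAW Con A EVs and from 8 to 0 in RAW Con A against RAW saline EVs. The last count was 4 by upper quartile, 5 by library size, 3 with those groups alone, and 1 to 9 without 1 library, under 6 without RAW saline 2 or 3 or RAW Con A 2 or 3. In RAW Con A EVs against PBS it was 16 with no filter and 10 to 27 without 1 library, at most 17 without any 1 of the 6 libraries compared, and in RAW saline EVs 51 against 32 by library size. miR-9-3p rests on 21 to 60 reads per cell library.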
